A study of Danio rerio with 11 samples.

Results

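The comparison described here is that of melanocytes from skin of zebrafish carrying heterozygous melanoma alleles (MC_Het) with melanocytes from WT skin (MC_WT), over all genes measured by RNA-seq. It uses 6 of the 11 samples of the series, 3 MC_WT and 3 MC_Het, and 13044 of the 24441 genes listed, those with at least 1 CPM (counts scaled to the library's total reads) in at least 3 of the 6 samples. The 5 melanoma samples took no part in the test.

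MC_WT were mCh+ (mCherry-positive) cells sorted from 3 independent AB* fish with a MiniCoopR; *mitfa*:mCherry transgene, labelled mitfa:mCherry. MC_Het were mCh+ cells from 3 independent fish labelled BRAFV600E/+/p53+/lf/mitfa+/-/mitfa:mCherry, bred by crossing that line to Tg(*mitfa*:BRAFV600E); *p53*lf/lf; *mitfa*-/- fish. All fish were adults, their whole skin was dissociated, and ages are not given in the sources used here. The *mitfa* promoter drives both the BRAFV600E transgene and the mCherry by which cells were sorted, and MiniCoopR, present in both groups, carries a *mitfa* minigene. The *BRAF* transgene, the loss of 1 copy of *p53*, the loss of 1 copy of *mitfa* and the parentage of the fish changed together, so their contributions cannot be told apart.

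Melanocytes are neural crest derived cells in which the transcription factor Mitfa switches on the melanin enzymes and the structural proteins of the melanosome. BRAFV600E is a constitutively active kinase that signals through MEK and ERK, whose output includes *egr1*, dual specificity phosphatases and sprouty genes. p53 is a stress-activated transcription factor that restrains proliferation. Class I MHC molecules, which figure prominently below, display peptides that are cut by the proteasome, carried into the endoplasmic reticulum by the TAP transporter and loaded with the help of tapasin.

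Library totals, inferred from the smallest CPM above 0, lay between 14718024 and 21390942 reads. They are the totals to which CPM were scaled, not counts of reads sequenced. Of low values 100% corresponded to whole reads, and 90.9% to 92.0% of each total lay on the listed genes. Values below are CPM rescaled by the median of ratios over the 6 samples, given in the order MC_WT1, MC_WT2, MC_WT3, then MC_Het1, MC_Het2, MC_Het3. The sorted populations held far higher summed levels of keratinocyte markers than of melanin genes. The summed level of 39 keratinocyte markers was between 79170 and 126000 in MC_WT and between 73610 and 104600 in MC_Het. That of 17 melanin enzyme and melanosome matrix genes was between 890 and 1647 in MC_WT and between 1486 and 5127 in MC_Het. The basal keratin *krt5* was at 61340, 28330 and 32740 in MC_WT and 24170, 9025 and 39500 in MC_Het, with overlapping groups. Another keratin, *krt4*, leaned the other way, at 5339, 8946 and 6125 in MC_WT and 8493, 13200 and 20300 in MC_Het, also with overlap. Leukocyte, fibroblast and Schwann cell markers were also detected. The part of these and of keratinocyte transcripts in the results below was not tested except where values are given. As the RNA came from sorted bulk cells, fewer cells of a type and less RNA per cell cannot be told apart.

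The transcripts of *mitfa* and *braf* did not separate the groups. *mitfa* was at 17.4, 21.8 and 31.0 rescaled CPM in MC_WT and at 28.7, 9.90 and 2.98 in MC_Het (log2 fold change -1.13, SE 0.64, adjusted p = 0.51, limma). *braf* was at 7.87, 1.36 and 0.997 in MC_WT and 2.52, 0.521 and 0.386 in MC_Het (adjusted p = 0.65, limma). For both genes the groups overlapped. Reads of the minigene and of endogenous *mitfa* were not distinguished, and whether reads of the transgene fall on the *braf* row was not tested. *sox10*, which encodes the neural crest factor upstream of *mitfa*, was at 24.8, 43.6 and 23.5 in MC_WT and 61.5, 24.1 and 3.196 in MC_Het, so that MC_Het3 was the lowest of the 6 samples for both *sox10* and *mitfa*.

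The difference between the genotypes reached the threshold used in a small number of genes. A gene counted as called where its log2 fold change, taken on log2(rescaled CPM + 1), exceeded 1 in either direction and its Benjamini-Hochberg adjusted p from limma was below 0.05. Of 13044 genes tested 70 were called (0.537%), 48 of them higher in MC_Het (0.368%) and 22 higher in MC_WT (0.169%). For all 70 the 3 MC_WT and 3 MC_Het values did not overlap, as they did not for 18.1% of all genes tested (9.38% with MC_Het higher and 8.69% with MC_WT higher). The calls had log2 fold changes of at least 1.44 in size. With 3 fish a group the threshold on adjusted p favours large changes, and without the fold cutoff 70 genes also passed. Some called genes were nearly absent from a group. Of the 48 genes higher in MC_Het 17 were under 1 rescaled CPM in every MC_WT sample, and of the 22 higher in MC_WT 6 were under 1 in every MC_Het sample. Such genes passed the filter on low values only through the group in which they were high. At an unadjusted p under 0.05, 880 genes were higher in MC_Het (6.75%) and 778 higher in MC_WT (5.96%). These shares and those of the calls are the background for the counts of list members below. With 0.537% of genes called, 0 or 1 calls in a list say little about that list. The fitted log2 fold change was above 0 for 50.3% of genes, with a median of 0.0037. Protein-coding genes made up 64 of the 70 calls, and 5 of the 6 others were higher in MC_Het.

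**Figure D1:**
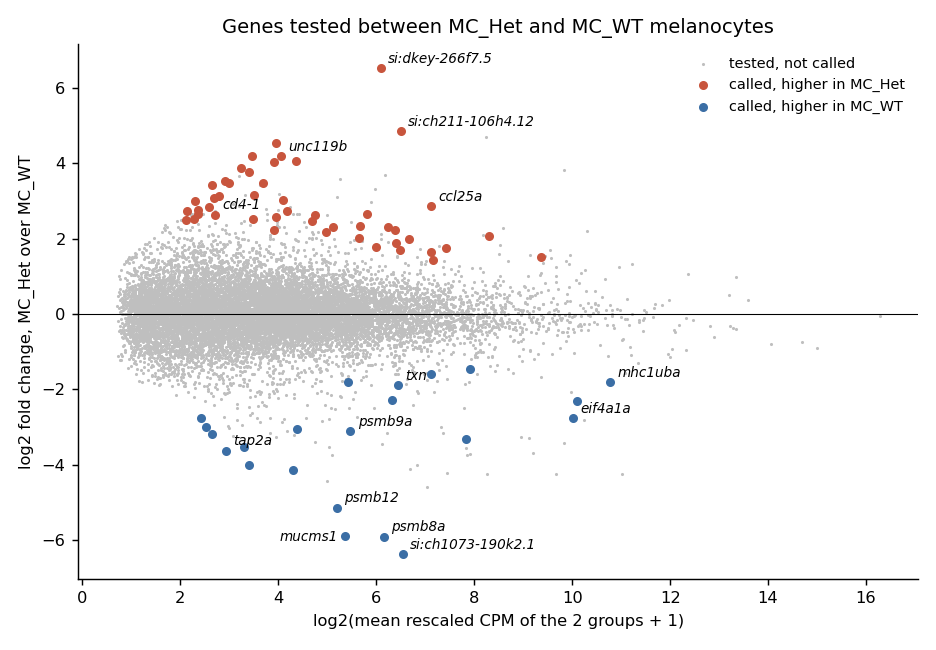
Each point is 1 of the 13044 genes tested, with log2 of the mean rescaled CPM of the 2 groups plus 1 on the horizontal axis and the log2 fold change of MC_Het over MC_WT on the vertical axis. The 48 genes called higher in MC_Het are red, the 22 called higher in MC_WT are blue, and genes that were not called are grey, including abundant genes with large fitted changes whose replicates differed widely.

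The calls depended on the individual fish and on the test. Leaving out each sample in turn over the same 13044 genes, between 13 and 67 of the 70 genes were called again, all with the direction they had in the full fit. The fewest were called without MC_WT3 and the most without MC_WT2, where the totals were 107 genes higher in MC_Het (0.820%) and 145 higher in MC_WT (1.11%). Called in all 6 of these fits were 12 genes. Higher in MC_WT among them were *psmb8a*, *psmb12*, *mucms1*, si:ch1073-190k2.1 and si:ch1073-340i21.3, and higher in MC_Het were si:dkey-266f7.5, zgc:153759, *ccl25a*, si:ch211-106h4.12, si:dkey-79f11.7, BX323854.2 and *unc119b*. When the filter on low values was reapplied to the 5 remaining samples, 5 of the 12 were fitted and passed in all 6 fits. They were *psmb8a*, *psmb12*, si:ch1073-190k2.1, si:ch1073-340i21.3 and zgc:153759. That filter still required 1 CPM in 3 samples, so genes below it throughout 1 group left the fit when a sample of the other was dropped. With an MC_Het sample dropped 52 of the 70 calls were fitted, and with an MC_WT sample dropped 64. Because si:dkey-266f7.5, *mucms1*, si:dkey-79f11.7 and BX323854.2 left fits in this way, their absence says nothing about their stability. DESeq2 on the recovered reads called all 70, while edgeR called 40 of them.

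The genes of class I antigen processing were the largest functional group among the calls. Of 40 members of a list of immunoproteasome, peptide transport and class I genes 33 were tested. Of these 9 were called higher in MC_WT and 0 higher in MC_Het, against 0.169% and 0.368% of all genes tested. The median log2 fold change of the 33 was -0.38, and 21 were fitted below 0, as were 49.7% of all genes tested. Of the 33 members 12 were higher in all MC_WT than in any MC_Het sample, as were 8.69% of all genes tested.

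Psmb8 and Psmb9 are catalytic subunits that replace constitutive ones in the immunoproteasome. *psmb8a* (ENSDARG00000001303) was at 160.5, 127 and 130 rescaled CPM in MC_WT and at 2.79, 0.912 and 0.716 in MC_Het. Every MC_WT sample was far above every MC_Het sample, and the log2 fold change was -5.91 (SE 0.40, adjusted p = 0.000228, limma). *psmb9a* was at 98.3, 45.0 and 92.5 in MC_WT and 4.81, 9.31 and 10.03 in MC_Het. The groups did not overlap, with MC_WT2 the lowest of MC_WT (log2 fold change -3.11, SE 0.41, adjusted p = 0.0126, limma).

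*psmb12* and *psmb13a* encode further beta subunits found beside these genes in fish. *psmb12* was at 83.5, 51.0 and 76.6 rescaled CPM in MC_WT and at 1.48, 0.716 and 0.827 in MC_Het (log2 fold change -5.14, SE 0.40, adjusted p = 0.000606, limma). *psmb13a* was at 43.5, 29.3 and 35.7 in MC_WT and 2.68, 3.58 and 4.08 in MC_Het (log2 fold change -3.06, SE 0.38, adjusted p = 0.00925, limma). Both genes were thus at a small part of their MC_WT level in every MC_Het sample. By contrast *psmb10*, which encodes the remaining inducible catalytic subunit, was at 41.9, 39.2 and 24.4 in MC_WT and 13.1, 27.4 and 35.7 in MC_Het, with overlapping groups (adjusted p = 0.64, limma).

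*tap2a* encodes a subunit of the peptide transporter. It was at 18.9, 14.4 and 6.38 rescaled CPM in MC_WT and at 0, 0.0651 and 0.110 in MC_Het, where the 3 libraries together held 3 reads against 750 in MC_WT. The ratio was 226.5 with an exact counting interval of 77.2 to 1101, which covers counting error only (log2 fold change -3.63, SE 0.51, adjusted p = 0.0179, limma). The other transporter gene, *tap1*, was at 9.97, 19.7 and 5.08 in MC_WT and 4.92, 8.34 and 10.25 in MC_Het (adjusted p = 0.81, limma), so the groups overlapped.

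Among class I heavy chains, *mhc1uba* fell from 3200, 2140 and 2816 rescaled CPM in MC_WT to 587, 881.5 and 869 in MC_Het (log2 fold change -1.81, SE 0.28, adjusted p = 0.0265, limma). It remained abundant in MC_Het, unlike the 3 genes of the L lineage, a class I branch found in fish. *mhc1lda* was at 17.3, 48.7 and 42.7 in MC_WT and 2.79, 0.0651 and 0.771 in MC_Het (log2 fold change -4.15, adjusted p = 0.0189, limma). *mhc1lfa* was at 6.997, 29.4 and 20.5 in MC_WT and 0.0547, 0.195 and 0 in MC_Het (log2 fold change -4.01, adjusted p = 0.0179, limma). *mhc1lja* had a log2 fold change of -3.53 (adjusted p = 0.0319, limma), and in all 3 genes MC_WT1 was the lowest of MC_WT but above all MC_Het. Reads of class I genes can be shared between near-identical copies, so the division among these family members is uncertain.

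The other 24 members tested were not called. *b2m*, which encodes the light chain shared by class I molecules, was at 1507, 975 and 1391 rescaled CPM in MC_WT and 885, 1158 and 1012 in MC_Het (log2 fold change -0.33, SE 0.26, adjusted p = 0.65, limma). The tapasin gene *tapbp.1* was at 25.0, 32.2 and 21.3 in MC_WT and 8.75, 11.7 and 14.2 in MC_Het, and *tapbp.2* at 3.67, 1.11 and 5.08 in MC_WT and 8.80, 14.0 and 17.4 in MC_Het. The 2 tapasin genes were thus non-overlapping in opposite directions without passing the threshold (log2 fold changes -1.12 and 1.83, adjusted p = 0.22 and 0.19, limma). The proteasome activator genes *psme1* and *psme3* were also higher in all MC_WT samples, with log2 fold changes of -0.40 and -0.85 (adjusted p = 0.54 and 0.24, limma). Of 36 genes of the constitutive proteasome 0 were called and 32 were fitted below 0, with a median log2 fold change of -0.30 and with 8 at an unadjusted p under 0.05, all higher in MC_WT. Of 49 interferon response genes tested 2 were called, *psmb8a* and *psmb9a*, both also in the class I list, and the median was -0.11. Of all genes tested 0.169% were called higher in MC_WT. The interferon-induced family gene si:dkey-79f11.7, described below, was outside this list and was called higher in MC_Het. Within the list *mxd*, an antiviral GTPase gene, was at 1.11, 1.36 and 0 in MC_WT and 7.93, 7.62 and 26.8 in MC_Het (log2 fold change 2.92, adjusted p = 0.076, limma).

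The 9 class I calls were not equally stable. Leaving out each sample in turn, between 3 and 9 of them passed, the fewest without MC_WT3 and all 9 without MC_WT2. *psmb8a* and *psmb12* passed in all 6 fits, *psmb9a* and *psmb13a* in 4, *tap2a*, *mhc1lda* and *mhc1lfa* in 3, *mhc1lja* in 2 and *mhc1uba* in 1.

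**Figure D2:**
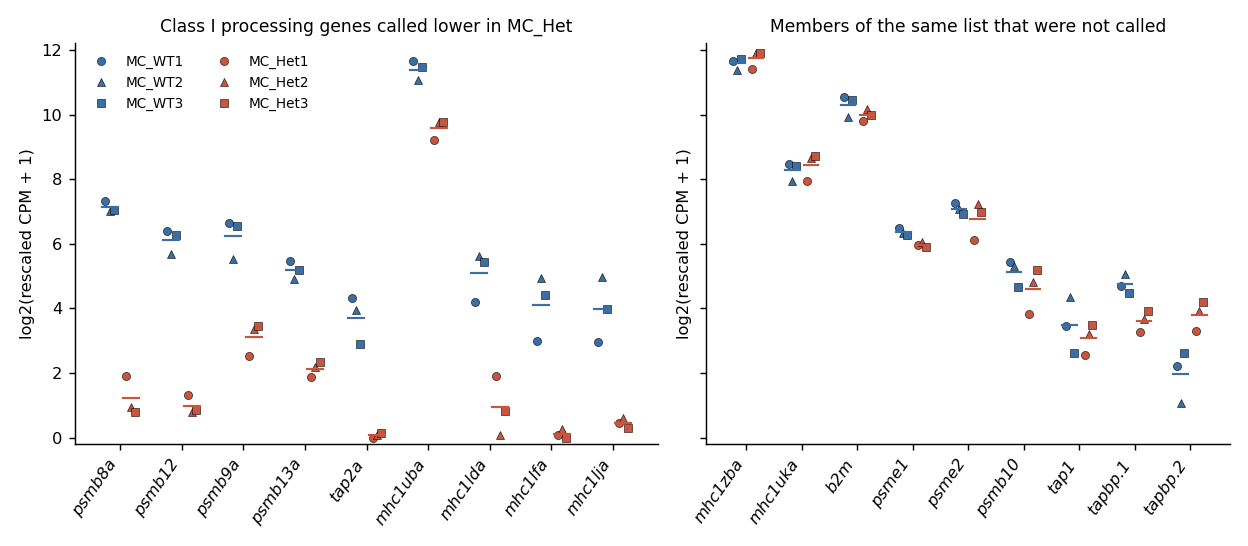
Points are log2(rescaled CPM + 1) of each sample (circle, triangle and square for replicates 1, 2 and 3), blue for MC_WT and red for MC_Het, and short lines are group means. The 9 called genes on the left do not overlap between the groups, while on the right, for 9 members of the same list chosen after their values were seen, *b2m*, *mhc1zba* and *mhc1uka* lie at similar levels and *tapbp.1* and *tapbp.2* differ in opposite directions.

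Some of the calls were neighbours in the genome. In the gene order of RefSeq (assembly GRCz12tu, used for order only, since the study aligned to GRCz11), 57 of the 70 called genes and 12378 of the genes tested could be placed. Of the 57 placed genes 15 had another called gene within 10 genes, as did 397 of all tested genes placed (3.21%). The longest run was formed by *mhc1uba*, *psmb8a*, *psmb13a*, *psmb12*, *psmb9a* and *tap2a*, all higher in MC_WT, with *psmb8a*, *psmb13a*, *psmb12*, *psmb9a* and *tap2a* adjacent to each other. Another run comprised *mhc1lda*, *mhc1lfa* and *mhc1lja*. The chemokine genes *ccl38a.4* and *ccl38a.5* were adjacent and both higher in MC_Het. The neighbours si:dkeyp-120h9.1 and zgc:111986 were called in opposite directions, the first higher in MC_WT and the second higher in MC_Het.

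On the same chromosome as *psmb8a*, the genes *s100u*, si:dkey-266f7.1 and si:dkey-266f7.5 lay 27, 43 and 46 genes away and were higher in MC_Het. In the stretch of 50 RefSeq genes that spans all of these 35 genes were tested and 9 were called, 6 higher in MC_WT and 3 higher in MC_Het. Its ends were set by called genes, so this count is a description only. No called gene was placed on the chromosome of *mitfa* or that of *braf*. Copies of class I region genes are known to differ between zebrafish haplotypes, and how reads from copies absent from the reference were counted was not tested.

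Among genes higher in MC_Het the gene with the smallest p of all was si:dkey-266f7.5 (ENSDARG00000094886), for which the tables used here give no function. It was at 0.350, 0.533 and 0.349 rescaled CPM in MC_WT and at 87.5, 169 and 144 in MC_Het, so that it was nearly absent from all MC_WT samples (log2 fold change 6.53, SE 0.39, adjusted p = 0.000157, limma). Because the low group was near 0 its fold depended on the scale of the fit, and the log2 fold change was 8.33 with DESeq2 on the recovered reads. Its neighbour si:dkey-266f7.1, currently named *nuggc.3*, was at 4.26, 3.195 and 2.89 in MC_WT and 21.0, 26.4 and 29.2 in MC_Het (log2 fold change 2.58, adjusted p = 0.0236, limma).

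Like si:dkey-266f7.5, other genes that are named only by their clones were low in MC_WT. si:ch211-106h4.12 was at 3.38, 9.64 and 2.24 rescaled CPM in MC_WT and 288, 79.1 and 157 in MC_Het (log2 fold change 4.85, SE 0.55, adjusted p = 0.00624, limma). zgc:153759 was at 1.17, 1.69 and 1.05 in MC_WT and 30.1, 50.8 and 32.9 in MC_Het (log2 fold change 4.05, adjusted p = 0.00365, limma). BX323854.2 was at 0.175, 0.0484 and 0.299 in MC_WT and 13.1, 37.2 and 35.9 in MC_Het (log2 fold change 4.53, adjusted p = 0.00624, limma). In all 3 genes the lowest MC_Het sample exceeded the highest MC_WT sample by several fold. si:ch211-121a2.2, BX469930.1, BX323854.4 and si:ch211-103f14.3 had log2 fold changes of 3.54, 3.48, 3.43 and 4.05.

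si:dkey-79f11.7, whose current name *ifi44a5* places it in a family of interferon-induced genes, was at 0.0583, 0.0968 and 0.0997 rescaled CPM in MC_WT and 13.6, 15.8 and 30.5 in MC_Het. Its MC_WT libraries held 5 reads in all against 1044 in MC_Het (log2 fold change 4.19, SE 0.48, adjusted p = 0.00624, limma). It was outside the interferon response list, where this family was matched by older gene names only. Of 40 chemokine and chemokine receptor genes tested 3 were called, all higher in MC_Het (background 0.368%), with a median log2 fold change of -0.02 over the list. *ccl25a*, whose mammalian counterpart attracts T cell precursors to the thymus and lymphocytes to the gut, was at 25.5, 50.6 and 24.8 in MC_WT and at 226, 208 and 288 in MC_Het. Its MC_Het samples were close to each other and all well above MC_WT2, the highest of MC_WT (log2 fold change 2.87, SE 0.32, adjusted p = 0.00624, limma).

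The 2 other chemokine calls, *ccl38a.4* and *ccl38a.5*, were scarce, and as neighbouring copies of a family they may share reads. *ccl38a.4* was at 0, 0.533 and 0.797 rescaled CPM in MC_WT and 5.25, 11.5 and 12.1 in MC_Het (log2 fold change 2.84, adjusted p = 0.0461, limma). *ccl38a.5* had a log2 fold change of 2.50 (adjusted p = 0.0488, limma). The chemokine *ccl34b.1* had values in the opposite direction, 16.2, 8.96 and 33.4 in MC_WT and 2.84, 0.912 and 3.86 in MC_Het, without passing the threshold (log2 fold change -2.46, adjusted p = 0.12, limma). The number of chemokine genes called was between 1 and 5 with each sample left out, and without MC_WT2 it was 4 higher in MC_Het and 1 higher in MC_WT.

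*cd4-1*, the co-receptor gene of helper T cells, was at 1.34, 0.581 and 0.449 rescaled CPM in MC_WT and 6.78, 11.07 and 12.8 in MC_Het (log2 fold change 2.64, SE 0.48, adjusted p = 0.047, limma), and it passed in 0 of the 6 fits with a sample left out. It was the only call among 18 tested markers of T, NK and B cells (background 0.368%). At an unadjusted p under 0.05, 7 of the 18 were higher in MC_Het and 1 higher in MC_WT, against 6.75% and 5.96% of all genes tested. The median of these 18 was 0.46, and the summed level of the 28 markers listed was 675 to 1069 in MC_WT and 961 to 1408 in MC_Het. The adaptor gene *sla2* was at 1.81, 7.84 and 3.99 in MC_WT and 13.2, 38.1 and 54.6 in MC_Het (log2 fold change 2.66, adjusted p = 0.10, limma). The interleukin 7 receptor gene *il7r* was at 2.04, 3.73 and 1.79 in MC_WT and 8.37, 12.2 and 20.3 in MC_Het (log2 fold change 2.01, adjusted p = 0.12, limma). Others lay the other way. The T cell gene *cd8a* was at 28.1, 11.4 and 33.3 in MC_WT and 20.1, 7.68 and 11.9 in MC_Het, and *il2rb*, an interleukin receptor gene, at 3.73, 6.003 and 3.84 in MC_WT and 0.875, 0.651 and 0.937 in MC_Het (log2 fold changes -0.80 and -1.58, adjusted p = 0.55 and 0.19, limma). The summed levels overlapped between the groups, and the part of lymphocyte transcripts in the immune gene calls was not tested.

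Of 25 markers of macrophages and neutrophils tested 0 were called, 21 were fitted below 0 and 6 were higher in MC_WT at an unadjusted p under 0.05, with a median log2 fold change of -0.59. The median was 0.04 without MC_WT2 and -0.20 without MC_Het2. Their summed level was 3139, 5402 and 2263 in MC_WT and 2611, 1929 and 2894 in MC_Het, with overlapping groups. *mpeg1.1*, a perforin gene of macrophages, was at 317, 377 and 312 rescaled CPM in MC_WT and 191.5, 197 and 150 in MC_Het (log2 fold change -0.90, SE 0.23, adjusted p = 0.15, limma). Of 11 class II genes tested 0 were called. The gene si:zfos-2070c2.3, currently named *mhc2d8.37b2* after a class II family and outside that list, was at 1.28, 4.84 and 1.99 in MC_WT and 32.0, 14.3 and 41.8 in MC_Het (log2 fold change 3.03, adjusted p = 0.0445, limma).

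Most other genes called higher in MC_Het belonged to no list. *unc119b*, which encodes a chaperone of lipid-modified membrane proteins, was at 0.6997, 1.31 and 0.149 rescaled CPM in MC_WT and 18.5, 33.99 and 39.4 in MC_Het (log2 fold change 4.19, SE 0.49, adjusted p = 0.00694, limma). *nab1a*, which encodes a corepressor that binds Egr1, was at 7.11, 14.7 and 9.82 in MC_WT and 47.2, 64.5 and 40.3 in MC_Het (log2 fold change 2.19, adjusted p = 0.036, limma). *fgfr1bl*, annotated as similar to an FGF receptor gene, was at 0.292, 0.290 and 0.598 in MC_WT and 9.30, 6.12 and 8.27 in MC_Het (log2 fold change 2.67, adjusted p = 0.036, limma). As for all 70 called genes, the groups did not overlap for these 3.

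The depalmitoylase gene *abhd17ab* had a log2 fold change of 2.32, the ESCRT gene *tsg101b* 1.88 and the phosphoinositide kinase gene *pip5k1ba* 2.73. *tspan35*, a tetraspanin gene, was among the more abundant calls at 116, 110 and 127.5 rescaled CPM in MC_WT and 340, 642 and 558 in MC_Het (log2 fold change 2.07, SE 0.28, adjusted p = 0.0138, limma). *flrt2*, *tenm1* and *nsmaf* had log2 fold changes of 2.34, 2.52 and 2.48. *sult2st1*, a cytosolic sulfotransferase gene, was at 0.408, 0.0484 and 0.0498 in MC_WT and 10.1, 18.6 and 21.3 in MC_Het (log2 fold change 3.87, SE 0.48, adjusted p = 0.00925, limma), and *gstm.2*, a glutathione S-transferase gene, had a log2 fold change of 3.12.

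*krt94*, a keratin gene, was at 64.3, 88.6 and 48.8 rescaled CPM in MC_WT and 232, 216 and 172 in MC_Het (log2 fold change 1.64, SE 0.28, adjusted p = 0.0407, limma). It was the only call among 37 tested keratinocyte markers, whose median was -0.08, and among 20 keratin genes, whose median was -0.03. Of all genes tested 0.368% were called higher in MC_Het. *s100u*, a calcium-binding protein gene of the S100 family, was at 82.1, 70.8 and 78.2 in MC_WT and 196, 273 and 326 in MC_Het (log2 fold change 1.74, adjusted p = 0.0234, limma). *upk3b*, named after a uroplakin of urothelium, and *apnl*, an actinoporin-like gene, had log2 fold changes of 1.77 and 1.52. For *krt94* and *s100u* the groups did not overlap, and they passed in 1 and 2 of the 6 fits with a sample left out.

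Outside the class I genes, the genes higher in MC_WT shared no list. *mucms1*, annotated as a mucin gene and a member of the list of mucous cell and ionocyte markers, was at 126, 68.0 and 45.7 rescaled CPM in MC_WT and at 0.492, 0.130 and 0.165 in MC_Het. All MC_WT samples had it and MC_Het libraries held 14 reads in all (log2 fold change -5.89, SE 0.47, adjusted p = 0.000606, limma). The gel-forming mucin gene *muc5.2* of the same list had values in the opposite direction, 368, 93.5 and 505 in MC_WT and 969.5, 532 and 895 in MC_Het (log2 fold change 1.57, adjusted p = 0.26, limma). Of the 12 tested members of that list 9 were fitted above 0, with a median of 0.65.

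The clone-named genes si:ch1073-190k2.1 and si:ch1073-340i21.3 were among the most stable calls. si:ch1073-190k2.1 was at 172, 226 and 148 rescaled CPM in MC_WT and 4.43, 0.326 and 0.386 in MC_Het, where MC_Het1 was the highest of MC_Het (log2 fold change -6.39, SE 0.54, adjusted p = 0.000773, limma). si:ch1073-340i21.3 was at 374, 531 and 327.5 in MC_WT and 26.6, 40.1 and 57.2 in MC_Het (log2 fold change -3.32, SE 0.32, adjusted p = 0.00263, limma). Neither has a function in the tables used here.

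*eif4a1a*, which encodes an RNA helicase of translation initiation, was at 1343, 1340 and 2695 rescaled CPM in MC_WT and 378, 298 and 136 in MC_Het (log2 fold change -2.76, SE 0.41, adjusted p = 0.0231, limma). *txn*, the thioredoxin gene, was at 128, 128.5 and 153 in MC_WT and 42.6, 32.3 and 33.3 in MC_Het (log2 fold change -1.90, SE 0.25, adjusted p = 0.0138, limma). *ube2al*, a ubiquitin-conjugating enzyme gene, and *ptp4a2b*, a tyrosine phosphatase gene, had log2 fold changes of -1.46 and -1.59 with narrow spread in both groups.

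*fabp7a*, a fatty acid binding protein gene of glia and brain, was at 7.87, 8.96 and 8.02 rescaled CPM in MC_WT and 1.31, 0.0651 and 0.0551 in MC_Het (log2 fold change -2.75, adjusted p = 0.0461, limma). *mbpa*, a myelin gene, was by contrast at 5.48, 3.53 and 0.249 in MC_WT and 7.49, 2.93 and 17.03 in MC_Het, and 0 of 13 tested Schwann cell and myelin markers were called. *adamtsl2*, a gene of a secreted matrix glycoprotein, was at 12.5, 4.84 and 10.3 in MC_WT and 0.437, 0.0651 and 0.165 in MC_Het (log2 fold change -2.99, adjusted p = 0.036, limma). It was the only call among 54 matrix protease and inhibitor genes, where 0.169% of all genes tested were called higher in MC_WT. *dnajc5ab*, a co-chaperone gene, had a log2 fold change of -1.80 (adjusted p = 0.047, limma) and passed in 0 of the 6 fits with a sample left out. It was the only call among 74 heat shock and DnaJ genes (background 0.169%).

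Of 14 melanin enzyme and melanosome matrix genes tested 0 were called, 13 were fitted above 0 against 50.3% of all genes, and 3 were higher in MC_Het at an unadjusted p under 0.05. Their median log2 fold change was 0.80, and it was 0.22 without MC_Het1, 0.37 without MC_WT1 and 1.31 without MC_Het3. Of 26 genes of melanosome biogenesis and transport 0 were called and 15 were fitted above 0, with a median of 0.09 that was -0.16 without MC_Het1. The summed level of the 17 melanin enzyme and melanosome matrix genes listed was 890, 1647 and 1229 in MC_WT and 5127, 3582 and 1486 in MC_Het. By this sum MC_Het1 and MC_Het2 were above all MC_WT samples and MC_Het3 was within their range.

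*tyrp1b*, which encodes a melanosomal protein of melanin synthesis, was at 231, 543 and 490 rescaled CPM in MC_WT and 3117, 2360 and 811 in MC_Het (log2 fold change 2.197, SE 0.50, adjusted p = 0.10, limma). *pmela*, which encodes the fibril protein of the melanosome, was at 81.0, 171 and 177.5 in MC_WT and 977, 586 and 198 in MC_Het (log2 fold change 1.83, SE 0.53, adjusted p = 0.19, limma). In both genes all MC_Het samples were above all MC_WT samples, with MC_Het3 the lowest of MC_Het, and for *pmela* only narrowly above MC_WT3. *tyrp1b* passed without MC_Het3 (log2 fold change 2.77, adjusted p = 0.048, limma) and without MC_WT2 (2.42, adjusted p = 0.047, limma). *tyr*, the gene of tyrosinase, was at 5.89, 5.76 and 7.53 in MC_WT and 26.0, 9.44 and 6.28 in MC_Het, and MC_Het3 lay within the MC_WT range.

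Of 28 tested transcription factor and receptor genes of pigment cells 0 were called, with a median of 0.46. *kitlga*, which encodes the ligand of the Kit receptor, was at 8.75, 24.2 and 9.22 rescaled CPM in MC_WT and 69.9, 39.98 and 53.01 in MC_Het (log2 fold change 1.99, SE 0.43, adjusted p = 0.086, limma). Its groups did not overlap, and it passed without MC_WT2 (2.43, adjusted p = 0.0103, limma). *mc1r*, the melanocortin receptor gene, was at 7.17, 29.3 and 6.88 in MC_WT and 82.3, 47.0 and 14.6 in MC_Het, with overlapping groups. Among 13 xanthophore and 20 iridophore markers tested 0 were called, with medians of -0.05 and 0.25.

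Genes of the ERK and p53 pathways, which the alleles of MC_Het are known to act on, were not called. As 0.537% of all genes tested were called, 0 calls in lists of this size say little about these pathways. Of 35 ERK feedback and output genes tested 3 were higher in MC_Het and 0 higher in MC_WT at an unadjusted p under 0.05. The shares of all genes tested were 6.75% and 5.96%. The median log2 fold change of the 35 was 0.08. *egr1*, an immediate early transcription factor gene, was at 413, 748 and 109 rescaled CPM in MC_WT and 862, 1181 and 1158 in MC_Het (log2 fold change 1.71, SE 0.57, adjusted p = 0.24, limma). The groups did not overlap but MC_WT spread over a wide range, and without MC_WT2 *egr1* passed (2.31, adjusted p = 0.036, limma). *dusp6*, which encodes an ERK phosphatase and was chosen after its values were seen, was at 111, 173 and 113.5 in MC_WT and 251, 110 and 347 in MC_Het, with overlapping groups (log2 fold change 0.71, adjusted p = 0.51, limma).

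Of 38 genes of p53 and its targets 0 were called, and the median was 0.05. At an unadjusted p under 0.05, 2 were higher in MC_Het and 6 higher in MC_WT, against 6.75% and 5.96% of all genes tested. *ccng2*, a cyclin G gene, was at 391, 417 and 309 rescaled CPM in MC_WT and 691, 960 and 1268 in MC_Het (log2 fold change 1.35, SE 0.28, adjusted p = 0.075, limma). *btg2*, an antiproliferative gene, was at 3419, 3483 and 3090 in MC_WT and 4783, 8071 and 8665 in MC_Het (log2 fold change 1.06, adjusted p = 0.20, limma). *gadd45aa* and *plk3*, stress response genes of the same list, had log2 fold changes of -0.97 and -0.73 (adjusted p = 0.21 and 0.22, limma). None of the 4 overlapped between the groups, 2 being higher in MC_Het and 2 higher in MC_WT. Over the 38 genes, 4 did not overlap with MC_Het higher and 5 with MC_WT higher, against 9.38% and 8.69% of all genes tested. *ccng2* passed without MC_WT2 (adjusted p = 0.048, limma) and without MC_Het1 (adjusted p = 0.047, limma). Without MC_WT2 *ccng1*, another cyclin G gene, passed in the opposite direction (log2 fold change -1.18, adjusted p = 0.044, limma).

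Cell cycle genes gave 0 calls among 21 genes of senescence and G1 control and among 40 genes of S phase and mitosis. Of the 40, 27 were fitted below 0, with a median of -0.39 that was -0.097 without MC_Het1 and -0.66 without MC_Het3, and 5 were higher in MC_WT and 0 higher in MC_Het at an unadjusted p under 0.05. *tpx2*, a spindle assembly gene, was at 7.58, 6.83 and 19.6 rescaled CPM in MC_WT and 0.984, 1.69 and 3.75 in MC_Het (log2 fold change -1.92, SE 0.56, adjusted p = 0.19, limma). *cdk6*, a G1 kinase gene, was at 27.5, 54.5 and 76.9 in MC_WT and 122, 93.1 and 106 in MC_Het (log2 fold change 1.11, adjusted p = 0.23, limma). The groups did not overlap for either gene.

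**Figure D3:**
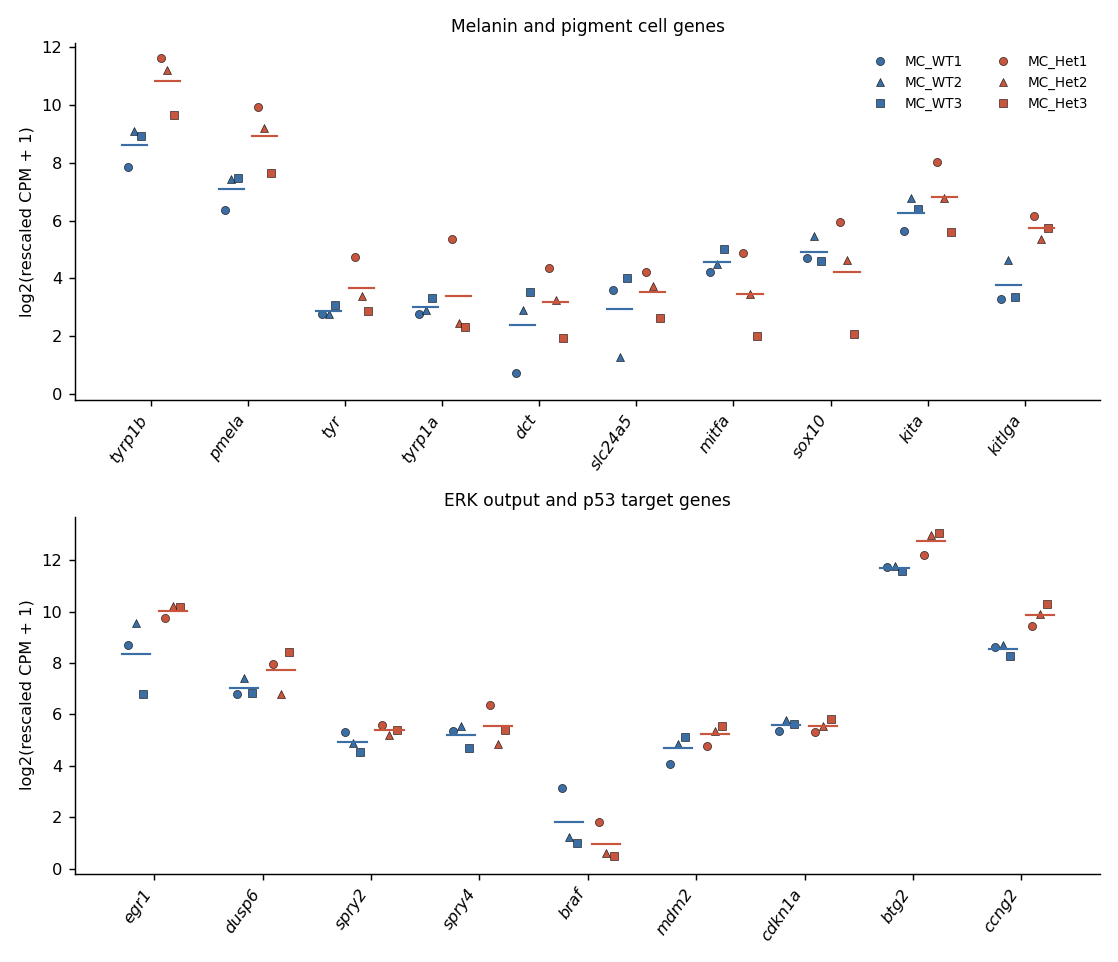
Points are log2(rescaled CPM + 1) of each sample (circle, triangle and square for replicates 1, 2 and 3), blue for MC_WT and red for MC_Het, with lines at group means. In the upper panel *tyrp1b* and *pmela* are higher in MC_Het with MC_Het3 lowest, and in the lower panel, where *dusp6*, *spry2*, *spry4*, *mdm2* and *cdkn1a* were chosen after their values were seen, *dusp6* overlaps between the groups while *btg2* and *ccng2* do not.

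The largest median of any list was that of cholesterol synthesis and uptake, and it was set by which MC_WT samples were included. Of 24 genes tested 0 were called, 23 were fitted below 0 and 13 were higher in MC_WT at an unadjusted p under 0.05, with a median log2 fold change of -2.66. The summed level was 19150, 376 and 21910 rescaled CPM in MC_WT and 1151, 986 and 315 in MC_Het. MC_WT1 and MC_WT3 were above all 4 other samples for 23 of the 24 genes, the exception being *insig2*. MC_WT2 was within the range of MC_Het for 17 of them, below it for 5 and above it for 2.

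*msmo1*, which encodes a sterol methyl oxidase late in the pathway, was at 5530, 48.0 and 6501 rescaled CPM in MC_WT and 259, 55.4 and 16.7 in MC_Het (log2 fold change -4.24, SE 1.64, adjusted p = 0.32, limma). *fdps*, the farnesyl diphosphate synthase gene, was at 2343, 43.1 and 2835 in MC_WT and 114, 77.4 and 25.6 in MC_Het. The genes thus shared a pattern of high MC_WT1 and MC_WT3 against low MC_WT2. Without MC_WT2, 20 of the 24 were called higher in MC_WT, against 1.11% of all genes in that fit, and the median was -4.34. With any other sample left out 0 were called. MC_WT2 also had the lowest *cyp7a1*, the gene of the rate-limiting enzyme of bile acid synthesis, at 268 against 1394 in MC_WT1 and 5006 in MC_WT3, while MC_Het were at 320, 1305 and 794.

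**Figure D4:**
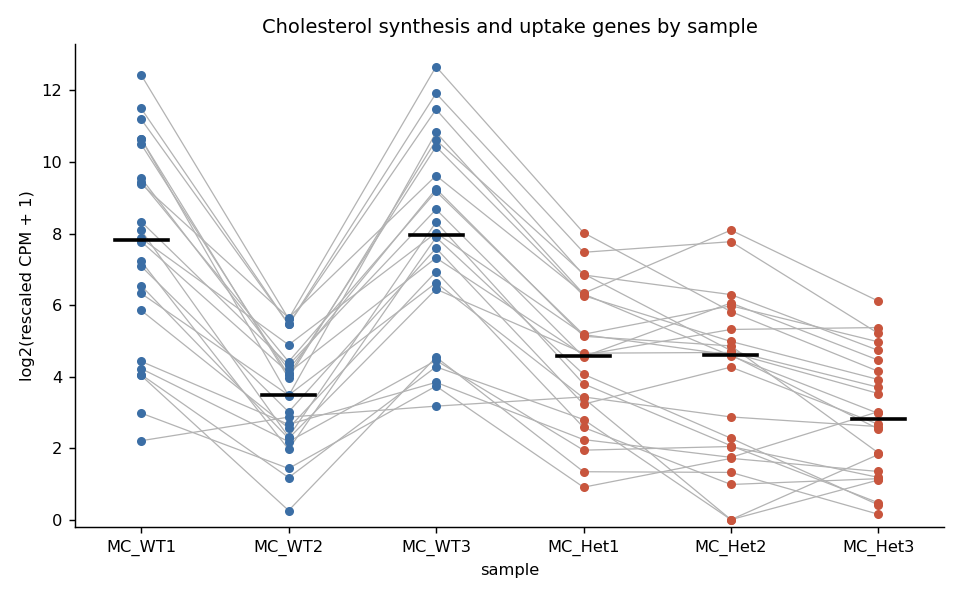
Each point is 1 of the 24 cholesterol synthesis and uptake genes in 1 sample, on the scale log2(rescaled CPM + 1), with grey lines joining the samples of a gene and black bars at the median. MC_WT1 and MC_WT3 are high, and MC_WT2 lies with the 3 MC_Het samples.

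Of 44 lysosome and V-ATPase genes tested 0 were called, 32 were fitted below 0, and 13 were higher in MC_WT and 0 higher in MC_Het at an unadjusted p under 0.05, with a median log2 fold change of -0.36. *npc2*, which encodes a lysosomal cholesterol-binding protein, was at 685, 426 and 694 rescaled CPM in MC_WT and 263, 169 and 218 in MC_Het (log2 fold change -1.46, SE 0.28, adjusted p = 0.060, limma). *ctss2.1*, a cathepsin S gene, was at 281, 273 and 227 in MC_WT and 150, 51.9 and 58.6 in MC_Het (log2 fold change -1.74, adjusted p = 0.089, limma). The groups did not overlap for either. Macrophages are rich in lysosomes, and the part of macrophage transcripts in these values was not tested. Without MC_WT2 the median of the lysosome genes was -0.27 and that of the macrophage and neutrophil markers 0.04. With any other sample left out both medians were below 0. They lay between -0.45 and -0.25 for the lysosome genes and between -0.86 and -0.20 for the macrophage and neutrophil markers. *npc2* passed without MC_WT2 (-1.69, adjusted p = 0.0131, limma) and *ctss2.1* without MC_Het1 (-2.21, adjusted p = 0.0131, limma).

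Of 26 genes of the unfolded protein response 0 were called and 10 were higher in MC_WT at an unadjusted p under 0.05, with a median of -0.40. *sdf2l1*, an endoplasmic reticulum chaperone gene, was at 22.7, 24.4 and 31.3 rescaled CPM in MC_WT and 6.12, 1.69 and 0.165 in MC_Het (log2 fold change -3.26, SE 0.62, adjusted p = 0.057, limma). All MC_WT samples were above all MC_Het samples, and it passed without MC_Het1 (-3.91, adjusted p = 0.0178, limma). Of 72 cytosolic ribosomal protein genes 59 were fitted below 0, with a median of -0.28, and of 79 nuclear genes of the respiratory chain 58 were, with a median of -0.24. Mitochondrial ribosomal protein genes had a median of -0.10, and the 13 genes of the mitochondrial genome a median of -0.31 that was 0.01 without MC_Het2. In these 4 lists 0 genes were called.

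Over all 53 lists, 2693 genes of the table were members and 1958 were tested. A call was found in 10 lists and none in 43, and 18 of the 70 called genes belonged to a list. The median log2 fold change was between -0.5 and 0.5 for 49 lists. It was above 0.5 for the melanin genes and for the mucous cell and ionocyte markers (0.65), and below -0.5 for the cholesterol genes and for the macrophage and neutrophil markers, the latter at 0.04 without MC_WT2. Leaving out single samples gave the other sign at least once for the medians of 32 lists, and never for those of 21. Calls were 0 for genes of Wnt, of Notch and of BMP and TGF beta signalling and for collagens. They were also 0 for *hox* genes, for chromatin regulators and for 207 solute carriers. As 0.537% of all genes tested were called, 0 calls in lists of this size say little about these genes.

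**Figure D5:**
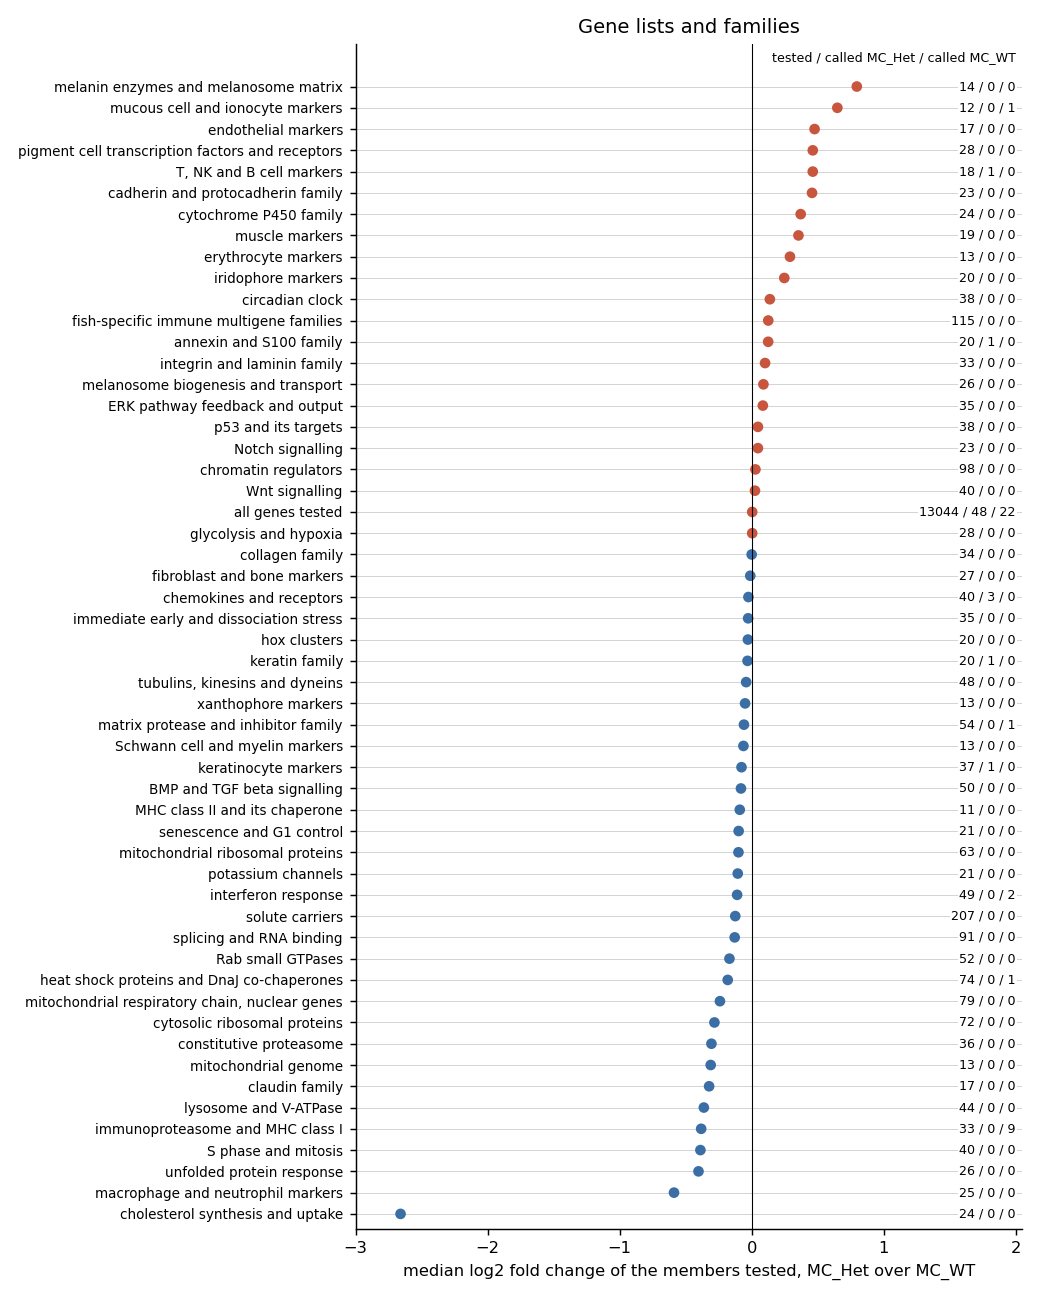
Each point is the median log2 fold change of MC_Het over MC_WT of the tested members of 1 list, red above and blue below 0, with the numbers tested and called in each direction at the right. The cholesterol list stands lowest at -2.66 with 0 calls, and the class I list at -0.38 has 9 genes called higher in MC_WT.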

How the data were processed

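mCh+ cells of 3 MC_WT and 3 MC_Het fish were compared by RNA-seq (1 × 50-base single-end reads of amplified cDNA). The submitters' processing notes name FastQC, STAR, RSEM and DESeq2, and the study aligned to GRCz11. The CPM deposited by the authors are read counts scaled to a common library total, and RPKM deposited by the authors are the same values divided by gene length. Which counter made this table of Ensembl identifiers is not given in the sources used here. It has 24874 rows for 24441 genes, 236 identifiers standing on several rows with equal values, each used once. All low CPM (up to 200 reads) were whole multiples of a single read within 0.01 reads, and whole reads were recovered.

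After median-of-ratios rescaling, genes reaching 1 CPM in 3 or more of 6 samples were fitted with limma 3.58.1 in R 4.3.3 (lmFit, eBayes with a trend, 2-sided, Benjamini-Hochberg) on log2(rescaled CPM + 1), so changes of low genes are understated. Calls required a log2 fold change beyond 1 in either direction with adjusted p below 0.05. The study's own threshold for p was 1e-6. The fits were also run on simulated data, with an outcome that is not reported here.

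The 53 lists and the genes to be named were chosen with earlier results of these data known. Named were altered loci, called genes of lists, the 12 calls of smallest p in each direction, the 5 of largest change with a mean of at least 10 rescaled CPM in the higher group, up to 4 members of a list of highest mean or smallest p, and lineage markers; other called genes, *tap1*, *psme1*, *psme3*, *psmb10*, *cd8a*, *ccng1*, *mhc1uka*, *insig2*, *mc1r* and *dusp6* were chosen after their values were seen. Some genes that the rule would name are not reported here. Lists are described by counts and medians, without a set test. Calls by chromosome were replaced by gene order, because the annotation at hand is of another build.

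Other settings tried were the RPKM table, the CPM without rescaling, 75th percentile scaling, pseudocounts of 0.1 and 0.5, no filter, a filter at 5 CPM on the mean, limma with no trend, recovered reads in DESeq2 1.42.0 and in edgeR 4.0.16, a replicate block, an adjusted p under 1e-6, no fold cutoff and each sample left out. The sample titles name no sequencing run or batch, and replicates were separate fish.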

Additional observations from a re-analysis of the deposited data

How the results depend on the processing

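All 70 called genes kept their direction in every setting in which they were fitted, while the number past the threshold varied. DESeq2 called 293 genes higher in MC_Het and 220 higher in MC_WT (30 and 17 at an adjusted p under 1e-6), edgeR called 26 and 15, limma without a trend 34 and 14, a pseudocount of 0.1 gave 28 and 17, and no filter gave 2 and 5. At an adjusted p under 1e-6 limma called 0 and 0, beside 880 and 778 at an unadjusted p under 0.05. With unscaled CPM the median log2 fold change of all genes was 0.098, against 0.0037 in the full fit, and the counts were 57 and 22. With each sample left out, 7 to 107 genes were higher in MC_Het and 7 to 145 higher in MC_WT, the highest counts being those without MC_WT2. Samples with the same replicate number did not deviate together (correlations -0.014, -0.128 and -0.069), and a replicate block gave 3 and 5.

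When the filter was also reapplied to the 5 remaining samples, a version run first and added after seeing the data, the counts higher in MC_Het were 28, 3 and 2 without MC_Het1, 2 and 3 and 8, 115 and 7 without MC_WT1, 2 and 3, and those higher in MC_WT were 24, 5, 6, 5, 141 and 5. Only 5 genes then passed in all 6 fits, against 12 on the same 13044 genes. Leading with the latter was decided after both were seen.

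Among genes named, signs changed only for those not called, while the medians of 32 of the 53 lists changed sign in at least 1 fit with a sample left out, among them the macrophage and neutrophil markers (-0.59, and 0.04 without MC_WT2). Log2 fold changes with each sample left out, the same in value with the filter reapplied, ranged from -1.57 to 0.38 for *sox10*, from -1.93 to 0.17 for *cyp7a1*, from -0.0852 to 0.69 for *spry4*, from -0.18 to 0.0772 for *cdkn1a* (0.0471 without MC_WT2, and 0.0565 with unscaled CPM), from -0.83 to 0.0602 for *tap1*, from -0.0122 to 0.41 for *mhc1uka* and from -0.0603 to 0.43 for *insig2* (-0.0135 without MC_Het1). The cause was not tested. With 3 fish a group and intervals that cover counting error only, genes under a few reads are the least certain.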
